A study of Mus musculus with 9 samples.

Results

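The proteasome genes of the mouse were followed in dissected eye tissue from newborn mice with and without a collagen IV mutation. Members were all protein-coding genes whose symbol is Psma, Psmb, Psmc, Psmd or Psme followed by a digit, which gave 45 of the 35275 genes in the count table. Of these, 44 had enough reads to be tested. By role they were 8 genes of the alpha ring, 4 structural and 3 catalytic genes of the beta ring, 3 inducible catalytic genes of the immunoproteasome, 1 thymus form (Psmb11), 6 ATPases and 3 other genes of the base, 8 genes of the lid, 3 assembly chaperones of the base and 5 activators. The remaining gene, Psmc3ip, carries the stem only in its name: its product binds Psmc3 and serves meiotic recombination, and it is not a subunit.

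RNA was sequenced in bulk from the anterior segment (cornea, iris, ciliary body and drainage structures, with the lens removed) at postnatal day 0. There were 3 wildtype samples (Col4a1+/+) and 6 mutant samples (Col4a1+/G1344D), the latter heterozygous for a missense change in Col4a1, a chain of the basement membrane collagen. The mutation was present in the whole animal, and each sample pooled 4 eyes from 2 mice, so an affected eye cannot be separated from a milder one in the same pool. No treatment was named for either group.

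The proteasome is the protease that degrades most short-lived and misfolded proteins of the cell after they have been tagged with ubiquitin. Its barrel-shaped core is built from stacked alpha and beta rings, and the catalytic sites sit inside, on Psmb6 (caspase-like), Psmb7 (trypsin-like) and Psmb5 (chymotrypsin-like). A regulatory particle caps the barrel, with a base whose ATPases unfold the substrate and a lid that removes the ubiquitin. Interferon replaces the catalytic subunits with Psmb9, Psmb10 and Psmb8, which favours peptides for presentation on major histocompatibility complex class I. When proteasome activity is short, the transcription factor Nfe2l1 raises the subunit genes together through antioxidant response elements.

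Because many of these genes are described as one co-regulated set, their promoters are shown for 3 core genes that were lower in mutants. The sequences are RefSeq's, on GRCm38.p6, and hold the 250 bases before the annotated start, 5′ to 3′ on the gene's strand. Capitals mark a match to the antioxidant response element core (TGACNNNGC) in Psmb5 and Psmb6 and a CCAAT box in Psma7. All 3 windows shown thus hold a match, whereas those of Psmd13 (called lower) and Psme4 (called higher), not printed, held neither. The windows are chr14:54617996-54618245 on the minus strand for Psmb5, chr11:70525107-70525356 on the plus strand for Psmb6 and chr2:180042465-180042714 on the minus strand for Psma7.
Psmb5: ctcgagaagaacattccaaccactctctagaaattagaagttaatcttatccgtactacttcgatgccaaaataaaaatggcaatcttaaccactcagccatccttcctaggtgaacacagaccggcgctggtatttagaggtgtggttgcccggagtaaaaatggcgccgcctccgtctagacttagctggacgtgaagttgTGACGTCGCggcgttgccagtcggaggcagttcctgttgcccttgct
Psmb6: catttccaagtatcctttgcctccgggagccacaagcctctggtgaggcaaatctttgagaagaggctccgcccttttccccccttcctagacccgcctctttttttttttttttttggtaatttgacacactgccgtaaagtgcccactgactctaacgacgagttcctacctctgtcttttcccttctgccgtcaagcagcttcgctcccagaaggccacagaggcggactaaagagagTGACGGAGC
Psma7: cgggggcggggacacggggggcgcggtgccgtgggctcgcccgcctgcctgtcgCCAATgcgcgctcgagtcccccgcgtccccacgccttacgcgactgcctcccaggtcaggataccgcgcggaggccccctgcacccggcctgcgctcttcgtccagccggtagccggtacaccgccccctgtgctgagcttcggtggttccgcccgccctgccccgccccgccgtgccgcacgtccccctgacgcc

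The match in Psmb5 began 47 bases before the start, and that in Psmb6 began 9 bases before it. In Psma7 the CCAAT box began 196 bases before the start. RefSeq promoters were matched for 38 of the 45 genes, some with more than 1 start, giving 41 windows. On either strand, TGACNNNGC was found in 5 of these 41 windows (Psmb5, Psmb6, Psmc6, Psmd12 and Psmd9), against 10.2% of all 32851 promoters of the same length. CCAAT was found in 15 of 41 windows, against 33.8% of all promoters, and the core of the interferon-stimulated response element (GAAA, any 2 bases, GAAA) in 3 (Psmb3, Psmd4 and Psmd9), against 2.98%. The latter was not found in the windows of Psmb8, Psmb9 or Psmb10. Among the genes lower in mutants with a promoter, 2 of 17 held TGACNNNGC and 8 of 17 held CCAAT, and among those that did not pass the test 3 of 19 and 6 of 19 did. These are matches of letters and are no evidence of a bound site.

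Libraries held between 25995340 and 35306935 counted reads. Values per gene are CPM, the read count scaled to a common library size with the TMM factors of edgeR, and a gene was called where edgeR's quasi-likelihood test gave a Benjamini-Hochberg adjusted p under 0.05 over all 15825 genes tested. The tissue's own markers were abundant: 6 corneal epithelium genes summed to 6880 to 8230 CPM over all 9 libraries, 6 keratocyte genes to 5260 to 9860 CPM and 6 pigment cell genes to 13700 to 16100 CPM. The 10 lens genes summed to 36.4 to 55.9 CPM, of which Crybb2 and Lim2 were at 0 in every library, as was the photoreceptor gene Rcvrn. The libraries also fell on 2 sides of a split in reads assigned to Gm42418, a gene that overlaps ribosomal RNA: wildtype 1 and mutants 1, 3, 4, 5 and 6 had 4.11% to 6.91% of their reads there, and wildtype 2, wildtype 3 and mutant 2 had 0.0663% to 0.0708%. The labels give no batch that goes with this split. Separate litters are not stated either, so a p-value measures the spread between pools.

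Most proteasome genes had lower values in the mutant anterior segment, and the genes called lower included 12 of 15 core genes and 4 of 17 genes of the regulatory particle. Of all 44 tested genes, 20 were called lower, 1 was called higher and 23 were not called, where 9.47% of all genes tested were called lower and 9.7% higher, or 19.2% in all. The log2 fold change was below 0 for 38 of 44, against 50.1% of all genes tested, and its median was −0.26, against −0.002 over all genes. In 17 genes all 6 mutant libraries were below all 3 wildtype libraries, which held for 11.2% of all genes, and in 1 gene all were above, which held for 10.8%. In bulk tissue, fewer cells of a type and less RNA per cell cannot be told apart.

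The counts depended on single libraries and on the length of the transcripts. Wildtype 1 was the only wildtype with a high share of reads on Gm42418. Leaving it out sets 2 wildtypes below that split against 5 mutants above it and 1 below. Genotype and the split then nearly coincide. Without wildtype 1, in which 20 of the 31 core and regulatory subunits (Psma8 aside) had their highest value, 3 genes were called lower (Psmb1, Psma7 and Psmd13), against 1.45% of all genes, and the median was −0.22. Without wildtype 3 there were 10, against 5.07% of all genes, with calls lost for Psma3, Psma4, Psma6, Psmb3, Psmb6, Psmb7, Psmc5, Psmd5, Psmd7 and Psme1. Without mutant 6 there were 13, against 7.72% of all genes. Calls of Psma3, Psmd5, Psmc3ip, Psme1 and Psmc5 were lost both there and, with that of Psma4, without mutant 3, and calls of Psmb6 and Psmd7 without mutant 6. Without wildtype 2 those of Psmd10, Psmc3ip and Psmd7 were lost, without mutant 2 those of Psmd5 and Psmc5, and without mutant 5 that of Psmd5. Proteasome transcripts are short, and in these libraries short genes were lower in mutants in general. When a smooth trend of expression on the length of the principal transcript was removed from each library, an alternative chosen after seeing the data, 7 genes were called lower and none higher, against 5.59% and 4.3% of all genes, and the median was −0.10. With a trend on total exon length removed instead, 13 were called lower and 1 higher, against 7.78% and 5.96% of all genes. With the Gm42418 split as a covariate, 14 were called lower and 0 higher, against 5.93% of all genes in each direction. The part of length in the difference was not tested beyond these values.

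**Figure D1:**
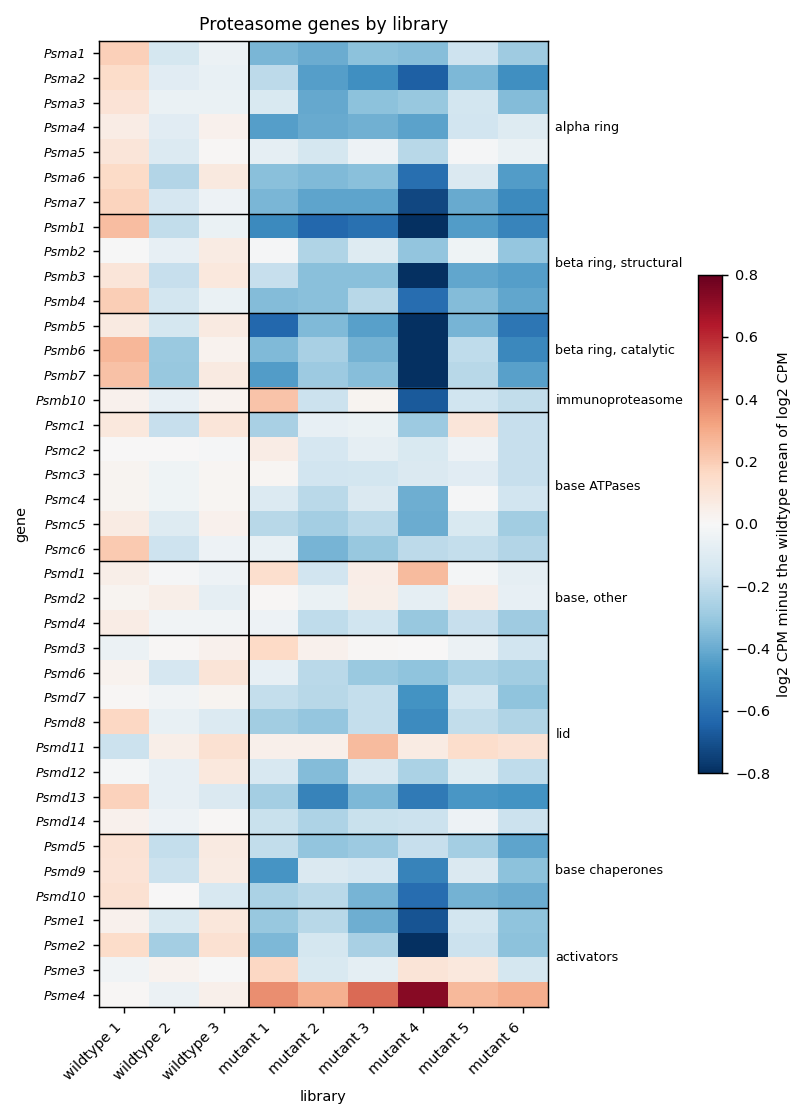
Proteasome genes with a wildtype mean of at least 10 CPM (rows, by role) in each library (columns); colour gives log2 CPM minus the mean of the wildtype libraries' log2 CPM, and the scale ends at −0.8 and 0.8, beyond which the colour no longer changes. Most core genes are blue across the 6 mutants and many are deepest in mutant 4, Psma5 and Psmb2 are pale, the base and lid are paler, and Psme4 is red in all 6.

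Psmb1, a structural subunit of the beta ring on chromosome 17 (15475021 to 15499751, GRCm38), fell furthest among the core genes. It measured 327, 240 and 265 CPM in wildtype 1, 2 and 3, and between 150 and 202 CPM in the mutants with a median of 187. The groups did not overlap. The means were 277 ± 44.4 CPM (SD, n = 3) and 183 ± 18.2 CPM (SD, n = 6), a log2 fold change of −0.60 with a standard error of 0.101 (edgeR adjusted p = 0.00195). Psmb1 was called under all 23 alternatives tried, and with the length trend removed its log2 fold change was −0.47 (edgeR adjusted p = 0.00154).

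The other structural beta genes followed at smaller sizes. Psmb4 fell from 219 ± 27.7 CPM to 168 ± 14.5 CPM, a log2 fold change of −0.38 (edgeR adjusted p = 0.00962), and its groups did not overlap. Psmb3 fell from 128 ± 13.6 CPM to 96.0 ± 13.4 CPM (log2 −0.41, edgeR adjusted p = 0.018), with the highest mutant and the lowest wildtype both at 112 CPM when rounded. Psmb2 was not called: it measured 90.6 ± 4.18 CPM and 80.8 ± 7.61 CPM, a log2 fold change of −0.16 with a 95% interval from −0.35 to 0.02. With the length trend removed, Psmb2 stood at 0.12, while Psmb3 and Psmb4 stood at −0.11 and −0.16 and were not called.

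All 3 standard catalytic genes were called lower. Psmb5, the chymotrypsin-like subunit and the main target of the proteasome inhibitors used in the clinic, lies on chromosome 14 (54614119 to 54618022). It measured 118, 102 and 118 CPM in wildtype 1, 2 and 3, and 55.8 to 87.9 CPM in the mutants with a median of 79.2. No mutant reached the lowest wildtype value. The log2 fold change was −0.55 with a standard error of 0.116 (edgeR adjusted p = 0.0056). It missed the threshold under 1 of 23 alternatives, the one without wildtype 1 (edgeR adjusted p = 0.0529), and with the length trend removed it was −0.27 (edgeR adjusted p = 0.0368).

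Psmb6, the caspase-like subunit, measured 187, 127 and 159 CPM in the wildtype libraries and 86.3 to 135 CPM in the mutants with a median of 121. Here the groups overlapped, since wildtype 2 was below the highest mutant. The log2 fold change was −0.43 (edgeR adjusted p = 0.0307). Psmb7, the trypsin-like subunit, measured 181, 125 and 162 CPM in the wildtypes and 87.1 to 132 CPM in the mutants with a median of 118. Its groups overlapped in the same way, at wildtype 2, and its log2 fold change was −0.43 (edgeR adjusted p = 0.022). Neither Psmb6 (−0.13) nor Psmb7 (−0.20) was called with the length trend removed, nor without wildtype 1. Nek6 overlaps Psmb7 on the opposite strand, and the strand setting of the counting is not given.

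In the alpha ring, which gates the entrance to the barrel, 6 of 8 genes were called lower, with a median log2 fold change of −0.32. Psma7 measured 185, 149 and 159 CPM in the wildtype libraries and 98.8 to 127 CPM in the mutants with a median of 122. The groups were apart, with a log2 fold change of −0.48 and a standard error of 0.0891 (edgeR adjusted p = 0.00331), and the call was made under all 23 alternatives. Psma2 measured 173, 147 and 150 CPM in the wildtypes and 99.5 to 135 CPM in the mutants with a median of 113. Its groups too were apart, with a log2 fold change of −0.44 (edgeR adjusted p = 0.00481), which missed the threshold without wildtype 1 (edgeR adjusted p = 0.0555). Psma2 has one of the longer transcripts of the core, of 2911 bases, and its log2 fold change was also −0.44 with the length trend removed. A gene model, AW209491, overlaps it, and the labels name no strand setting for the counting.

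The 4 other alpha genes called lower spanned −0.28 to −0.37. Psma1 fell from 131 ± 15.9 CPM to 105 ± 5.85 CPM, a log2 fold change of −0.32. Psma6 fell from 127 ± 17.4 CPM to 98.4 ± 11.0 CPM, with groups that overlapped. Psma4 was at −0.31 and Psma3 at −0.28, both with groups apart. AY074887 overlaps Psma4 on the opposite strand, with the same limit as for Psma2. Psma3 kept its call with the length trend removed (log2 −0.27, edgeR adjusted p = 0.0248), whereas Psma1, Psma4 and Psma6 moved to between −0.08 and −0.11 and lost theirs. Psma5 was not called: at 84.8 ± 6.16 CPM and 79.6 ± 4.15 CPM its log2 fold change was −0.09, with a 95% interval from −0.26 to 0.08, and it stood at 0.12 with the length trend removed.

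Psma8, the germ cell form that takes the place of Psma7 in the testis, lies on chromosome 18 and was barely detected. It had 21, 7 and 12 reads in the wildtype libraries and 6 to 65 in the mutants, so its fitted log2 fold change of 0.31 had an interval from −1.31 to 1.92. The 65 reads were in mutant 1, and no other mutant had more than 17. Without mutant 1 the fitted value was −0.77. Psmb11, the form restricted to the thymic cortex, had 5 reads in mutant 3 and 0 in the other 8 libraries, where 0 allows up to 3, and was not tested.

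Summed over the core genes, the wildtype libraries stood at 1820 to 2280 CPM and the mutants at 1310 to 1690 CPM, with no overlap. Against the wildtype mean of log2 CPM, the median core gene stood at 0.15, −0.14 and 0.02 in wildtype 1, 2 and 3. It stood at −0.35, −0.35, −0.34, −0.63, −0.21 and −0.44 in mutants 1 to 6. Mutant 4 was the lowest library for 19 of the 31 core and regulatory subunits and had the largest share of reads on Gm42418. On the side of the split with 1 wildtype and 5 mutants, 14 of 14 core genes (Psma8 aside) were lower in mutants, with a median log2 difference of −0.55. On the side with 2 wildtypes and 1 mutant, 14 of 14 were lower as well, with a median of −0.30. Of all genes tested, 49.2% were lower on the first side, with a median of 0.011, and 50.6% on the second, with a median of −0.004. The within-split values rest on a single wildtype or a single mutant library and carry no test.

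**Figure D2:**
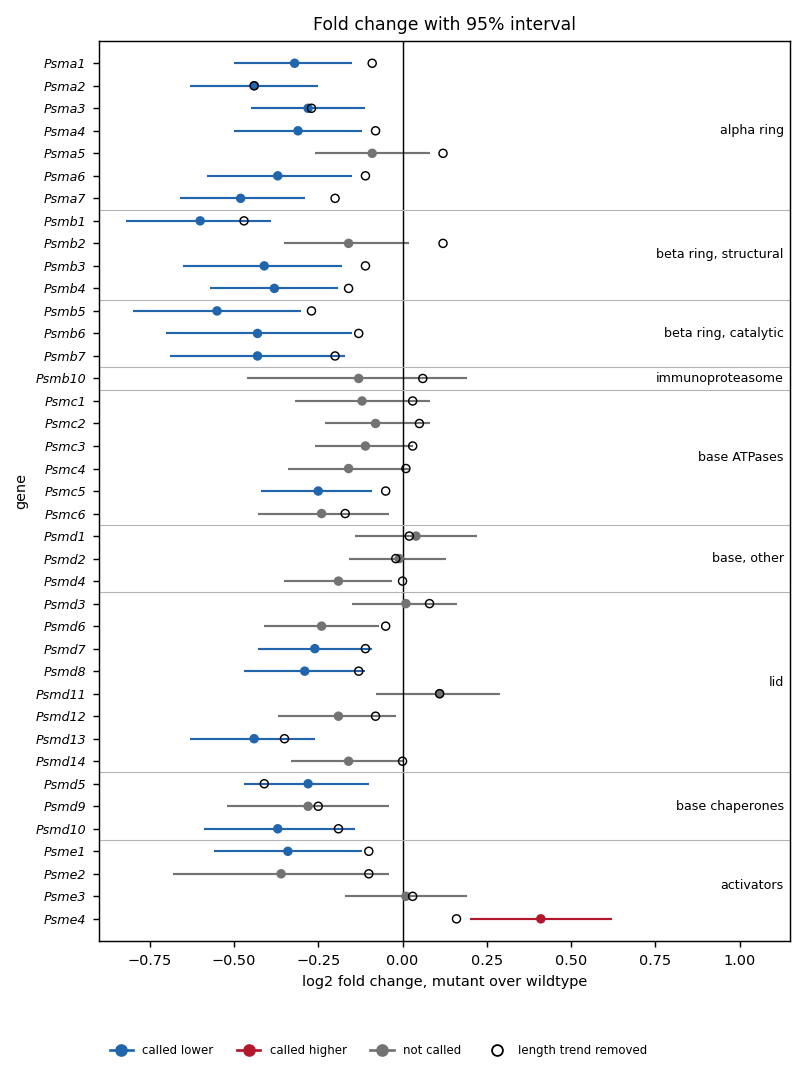
Log2 fold change of mutant over wildtype for proteasome genes with a wildtype mean of at least 10 CPM, by role; filled points are the main edgeR estimate with its 95% interval, and open circles the estimate with the transcript length trend removed. Psmb1, Psma2 and Psmd13 keep most of their distance from 0 with the trend removed, and most other core genes move toward 0.

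Some lists of cell markers also differed between the groups, where 9.7% of all genes tested were called higher and 9.47% lower. Summed macrophage markers stood at 276 to 287 CPM in wildtypes and 390 to 551 CPM in mutants (4 of 12 called higher), endothelial markers at 474 to 566 and 653 to 799 CPM (7 of 8 higher), and erythroid markers at 533 to 939 and 1800 to 8790 CPM (4 of 7 tested higher). Keratocyte markers went the other way, from 7400 to 9860 CPM in wildtypes to 5260 to 7340 CPM in mutants, with 4 of 6 called lower, and the lens markers from 48.8 to 55.9 CPM to 36.4 to 43.5 CPM, with 1 of 5 tested called lower. Dendritic (6 tested), skeletal muscle (7), retina (2) and pigment (6) markers gave no call. Corneal epithelium (6 tested) and lymphocyte markers (3 tested) gave 1 call each, higher. Without wildtype 1, 4 macrophage, 1 endothelial, 1 erythroid and 1 dendritic marker were called higher, beside 1.88% of all genes. In that fit 0 keratocyte and 0 lens markers were called lower, beside 1.45% of all genes. With the transcript length trend removed, 7 macrophage, 5 endothelial, 4 erythroid and 1 lymphocyte marker were called higher, beside 4.3% of all genes. There 2 keratocyte, 1 pigment and 0 lens markers were called lower, beside 5.59% of all genes. The part of these cell types in the proteasome values was not tested.

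Of the 17 genes of the regulatory particle, 4 were called lower and none higher, against 9.47% and 9.7% of all genes. The median log2 fold change was −0.16, beside 12 of 15 lower and a median of −0.38 in the core. The difference between the core and the cap itself was not tested. Its summed level was 2040 to 2180 CPM in the wildtypes and 1810 to 1990 CPM in the mutants, again without overlap. With the length trend removed its median was −0.00, with 1 gene called lower, and that of the core was −0.13, with 5 called lower. In that fit 5.59% of all genes were called lower. The 17 genes had a median transcript length of 1636 bases. In the shortest of 4 equal length classes, up to 1819 bases, 22.9% of all genes were called lower in the main fit.

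The ATPases of the base gave 1 call in 6. Psmc5 fell from 105 ± 6.47 CPM to 87.8 ± 5.51 CPM, a log2 fold change of −0.25 (edgeR adjusted p = 0.0329), with groups apart. The log2 fold changes of the other ATPases were between −0.08 for Psmc2 and −0.24 for Psmc6. Psmc3, the ATPase with the highest level per length, measured 173, 166 and 172 CPM in the wildtypes and 150 to 172 CPM in the mutants, with a log2 fold change of −0.11. Its interval reached from −0.26 to 0.03. All 6 ATPases were below 0, but with the length trend removed their median was 0.02.

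The other genes of the base were not called. Psmd2 and Psmd1, the large scaffolds of the base, stood at −0.01 (95% interval −0.16 to 0.13) and 0.04 (−0.14 to 0.22). Psmd2 was at 241 ± 10.5 CPM in wildtypes and 239 ± 9.61 CPM in mutants. Psmd4, a ubiquitin receptor, measured 122, 115 and 115 CPM in the wildtypes and 94.9 to 114 CPM in the mutants, so its groups did not overlap although it was not called (log2 −0.19, edgeR adjusted p = 0.0836).

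In the lid, 3 of 8 genes were called lower, with a median of −0.21. Psmd13, a structural lid subunit on chromosome 7 (140881968 to 140898643), measured 166, 140 and 135 CPM in the wildtypes and 99.1 to 121 CPM in the mutants with a median of 106. All mutants were below all wildtypes. The log2 fold change was −0.44 with a standard error of 0.0854 (edgeR adjusted p = 0.0037), and the gene was called under all 23 alternatives, at −0.35 with the length trend removed. Sirt3 overlaps Psmd13, and reads of the overlap cannot be assigned without the strand setting.

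Psmd8 fell from 199 ± 20.4 CPM to 163 ± 12.4 CPM (log2 −0.29, edgeR adjusted p = 0.0247), and Psmd7, the partner of the deubiquitinase, from 146 ± 2.67 CPM to 122 ± 9.92 CPM (log2 −0.26, edgeR adjusted p = 0.0303). Both had groups apart, and neither was called without wildtype 1 or with the length trend removed. Psmd14, the deubiquitinase itself, was at 64.0 ± 1.72 CPM and 57.1 ± 2.68 CPM, a log2 fold change of −0.16 that was not called. Psmd6 lay just outside the threshold (log2 −0.24, edgeR adjusted p = 0.0501). Psmd11, whose amount has been tied to proteasome assembly in stem cells, was one of 2 lid genes above 0, with 61.2, 71.2 and 74.9 CPM in wildtypes, 70.8 to 82.0 CPM in mutants and a log2 fold change of 0.11 (95% interval −0.08 to 0.29). The other was Psmd3, at 0.01.

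The chaperones of the base help its ATPases to assemble and are not part of the finished particle. Psmd10, also called gankyrin, fell from 28.6 ± 2.42 CPM to 22.1 ± 2.05 CPM (log2 −0.37, edgeR adjusted p = 0.024), with groups apart. Psmd5 fell from 66.2 ± 7.38 CPM to 54.4 ± 3.22 CPM (log2 −0.28, edgeR adjusted p = 0.0353), and its highest mutant, at 58.0 CPM, was just above wildtype 2, at 57.8 CPM. With a transcript of 4397 bases, Psmd5 had the longest transcript of the members called lower, and with the length trend removed its log2 fold change was −0.41 (edgeR adjusted p = 0.00656). Psmd9 was at −0.28 and was not called (edgeR adjusted p = 0.097). The overlapping genes Cutal and Hpd leave Psmd5 and Psmd9 uncertain to that extent.

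The activators open the core without the ATPases, and 1 of 5 was called lower and 1 higher. Psme4, a large activator known from the testis and from nuclear proteasomes, lies on chromosome 11 (30771726 to 30880361) and was the single member called higher. It measured 80.7, 77.7 and 82.5 CPM in the wildtypes and 96.0 to 133 CPM in the mutants with a median of 101. Every mutant was above every wildtype. The log2 fold change was 0.41 with a standard error of 0.0989 (edgeR adjusted p = 0.0111). It was lost under 4 of 23 alternatives, namely without wildtype 1 (edgeR adjusted p = 0.0639), with the Gm42418 split as a covariate (edgeR adjusted p = 0.0578) and with the transcript length trend removed (log2 0.16, edgeR adjusted p = 0.22), with or without GC content. Within the split, the log2 difference was 0.42 on the side with 5 mutants and 0.29 on the side with 1.

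Psme1 and Psme2 form the interferon-induced activator ring and lie beside each other on chromosome 14 (55578123 to 55581529 and 55587441 to 55591113). Psme1 measured 72.3, 65.0 and 75.3 CPM in the wildtypes and 43.9 to 63.8 CPM in the mutants with a median of 57.0, which left the groups just apart. Its log2 fold change was −0.34 (edgeR adjusted p = 0.0324), and −0.10 and not called with the length trend removed. Emc9 overlaps Psme1 on the opposite strand, and reads of the overlap cannot be assigned without the strand setting. Psme2 measured 59.8, 44.6 and 58.8 CPM in the wildtypes and 26.9 to 48.9 CPM in the mutants with a median of 44.0. Its groups overlapped at wildtype 2, and it was not called (log2 −0.36, edgeR adjusted p = 0.101). Psme2b, a near copy of Psme2 with which it may share reads, had 17 to 84 reads per library and an interval from −1.01 to 0.59. Psme3, the nuclear activator, was at 100 ± 2.30 CPM and 100 ± 9.28 CPM, with an interval from −0.17 to 0.19.

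The immunoproteasome genes were expressed at low levels, and none was called. Psmb8 measured 2.06, 2.17 and 1.87 CPM in the wildtypes and 0.998 to 2.27 CPM in the mutants with a median of 1.80. The mutants spread around the wildtypes, and the log2 fold change was −0.25 with a 95% interval from −0.86 to 0.37. Psmb9 measured 3.21, 1.61 and 2.98 CPM in the wildtypes and 1.5 to 2.17 CPM in the mutants with a median of 1.81, a log2 fold change of −0.51 with an interval from −1.07 to 0.04 (edgeR adjusted p = 0.181). Wildtype 2 fell among the mutants. Psmb8 and Psmb9 lie on chromosome 17 (34197721 to 34201454 and 34181987 to 34187764) on either side of Tap1, which overlaps Psmb9 on the opposite strand, and their values rest on 28 to 74 and 42 to 87 reads per library. Psmb10, with 18.1, 16.9 and 18 CPM in the wildtypes and 11.1 to 20.7 CPM in the mutants, was at −0.13 with an interval from −0.46 to 0.19. All 3 intervals include the −0.43 of Psmb6 and Psmb7.

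Each inducible gene was also set against the standard gene whose place its product takes, within each library. Psmb8 stood at 1.82% ± 0.279 of Psmb5 in CPM in the wildtypes and 2.19% ± 0.426 in the mutants, a log2 difference of 0.26 (exact two-sided permutation p = 0.214, Benjamini-Hochberg adjusted over 3 ratios 0.321). Psmb10 stood at 11.5% ± 1.79 of Psmb7 and 13.9% ± 2.32, a log2 difference of 0.27 (exact permutation p = 0.143, adjusted 0.321). Psmb9 stood at 1.62% ± 0.315 of Psmb6 and 1.57% ± 0.135, a log2 difference of −0.03 (exact permutation p = 0.798). When 1 library was left out, the difference ran from 0.16 to 0.38 for Psmb8 to Psmb5 and from 0.17 to 0.39 for Psmb10 to Psmb7. The smallest p that the 84 splits of 9 libraries can give is 0.0119, and none of the 3 ratios passed the test. The highest single value was 18.3% for Psmb10 over Psmb7, in mutant 1.

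**Figure D3:**
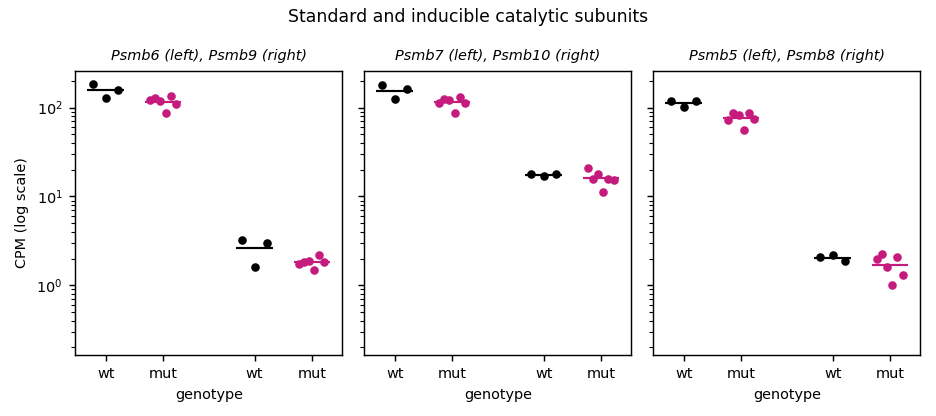
CPM on a log axis for each standard catalytic gene (left in each panel) and the inducible gene that replaces it (right), with 1 point per library and a line at the group mean, wildtype (wt, 3 libraries) in black and mutant (mut, 6 libraries) in pink. The standard genes sit near 100 CPM with the mutants lower, and the inducible genes lie far below them with the groups overlapping.

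Compared per length of the principal transcript, core subunits had the highest values. In the wildtypes the highest was Psmb6 at 197 ± 37.8 CPM per kb, followed by Psmb4 at 185 and Psma7 at 180 CPM per kb. Their order cannot be told apart, since the SD of Psmb6 covers both. The lowest of the standard beta genes was Psmb2, at 105 CPM per kb, and the lowest alpha gene other than Psma8 was Psma3, at 46.1. Psmb10 stood at 13.5, Psmb9 at 1.92 and Psmb8 at 1.25 CPM per kb. In the regulatory particle the levels ran from 129 CPM per kb for Psmd8 to 24.3 for Psmd11, with Psmc3 at 104 as the highest ATPase and Psmc6 at 46.9 as the lowest. The chaperones were at 13.7 (Psmd9) to 20 (Psmd10) CPM per kb. The activators ran from Psme1 at 63.7 through Psme2 at 56.5 and Psme3 at 37.5 to Psme4 at 12.4 and Psme2b at 2.16 CPM per kb. Subunits that are present in equal number in the particle thus differed several-fold in these values, which depend on the transcript chosen for the length. Per kb of all exons of the gene the order changed, with Psmb5 highest at 125, Psmb4 at 112, Psma6 at 103 and Psmb6 at 84.2, and Psma7 at 53.5 fell below Psmc5 at 75.1.

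**Figure D4:**
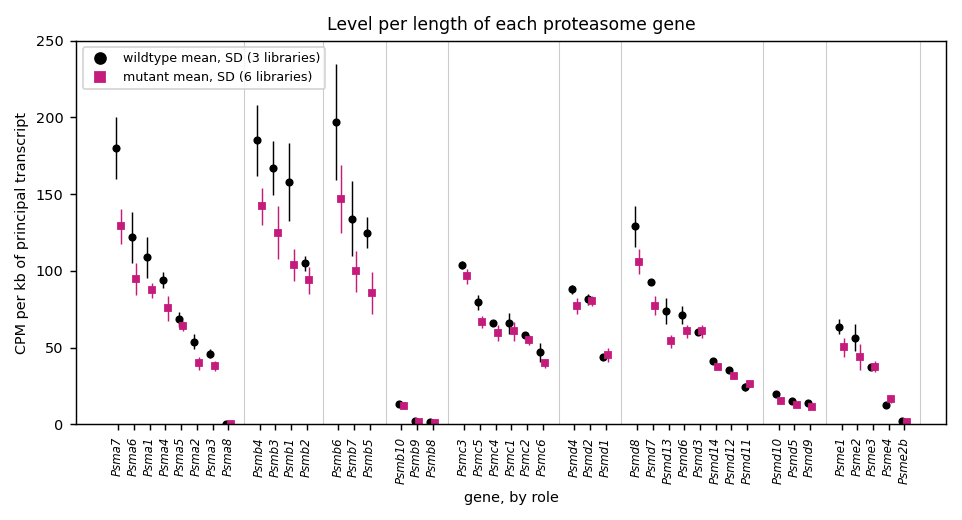
CPM per kb of the principal transcript for each tested proteasome gene, in order of level within its role, as mean and SD of 3 wildtype libraries (black circles) and 6 mutant libraries (pink squares). The beta genes Psmb6 and Psmb4 and the alpha gene Psma7 stand highest, and the inducible genes Psmb8, Psmb9 and Psmb10 close to 0.

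Transcript length set the members beside the other genes of their size. Of the 44 tested genes, 31 lay in the shortest of 4 equal length classes of all genes tested, up to 1819 bases. In that class 22.9% of all genes were called lower and the median of all genes was −0.27, while 16 of the 31 proteasome genes were called lower with a median of −0.29. In the next class, of 1820 to 2916 bases, 3 of 9 proteasome genes were called lower with a median of −0.24, against 9.79% and −0.08 for all genes. The longer classes held 4 members: Psmd1, Psmd2 and Psmd5 in one, of which Psmd5 was called lower, and Psme4 in the longest, where 25.9% of all genes were called higher and the median was 0.23. Across the 44 genes, the log2 fold change had Pearson's r of 0.53 and Spearman's rho of 0.48 with log length, which was 0.40 and 0.44 without Psme4. Across 15751 genes with a length, r was 0.38 and rho 0.51. These are correlations over genes that share the same 9 libraries, and genes are not independent replicates.

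**Figure D5:**
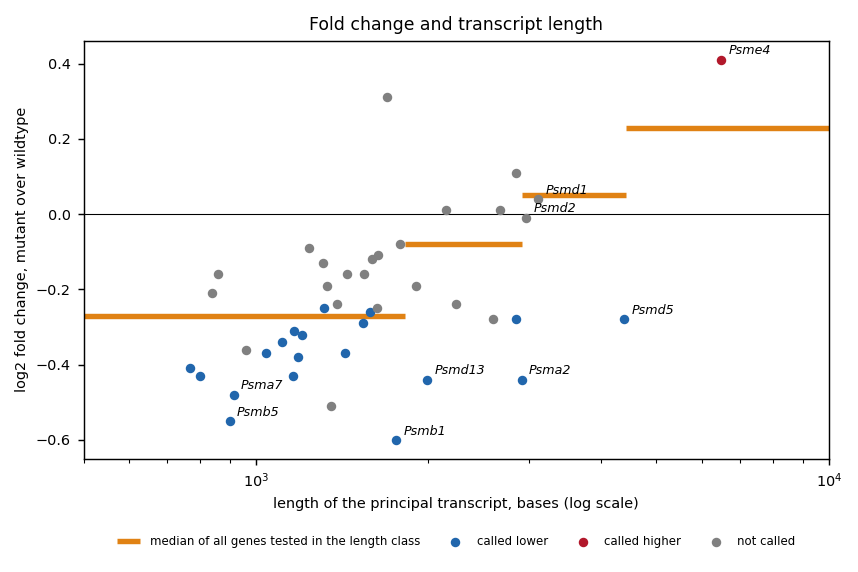
Log2 fold change of mutant over wildtype against the length of the principal transcript (log axis) for the tested proteasome genes other than Psmc3ip, coloured by call; orange bars give the median of all genes tested in each of 4 equal length classes, with the first and last classes running past the axis. Short subunits lie on both sides of the bar of their class, Psmb1, Psmd13, Psma2 and Psmd5 lie well below theirs, and Psme4 lies above its own.

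With the length trend removed, the 7 genes called lower were Psmb1, Psma2, Psmb5, Psmd13, Psmd5, Psma7 and Psma3. They hold 5 core genes, 1 lid gene and 1 chaperone of the base. Psmc3ip, the gene that shares only the name, fell from 6.21 ± 0.919 CPM to 4.06 ± 0.71 CPM (log2 −0.61, edgeR adjusted p = 0.0317) and was not called with the trend removed. It overlaps Mlx.

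Genes that build, feed or regulate the proteasome without being subunits by name were read from 6 lists. Of 57 tested, 4 were called lower and 9 higher, beside 9.47% and 9.7% of all genes. Without wildtype 1 there were 1 lower and 1 higher, beside 1.45% and 1.88% of all genes. With the transcript length trend removed there were 1 lower and 4 higher, beside 5.59% and 4.3% of all genes. The lower genes belonged to assembly, the particle itself and ubiquitin. Pomp, the chaperone that matures the core, measured 112, 89.7 and 100 CPM in the wildtypes and fell to a mean of 75.1 ± 10.7 CPM in the mutants (log2 −0.42, edgeR adjusted p = 0.0194). Psmg1, which helps the alpha ring to form, fell from 20.5 ± 2.00 CPM to 14.8 ± 0.742 CPM (log2 −0.47, edgeR adjusted p = 0.0093). Both had groups apart, and neither was called without wildtype 1, nor Pomp without wildtype 3. Neither was called with the transcript length trend removed (edgeR adjusted p = 0.0632 for Pomp and 0.223 for Psmg1). Sem1, the smallest lid subunit, named outside the Psm scheme, fell from 63.9 ± 13.0 CPM to 44.7 ± 9.58 CPM (log2 −0.52, edgeR adjusted p = 0.0437) with overlapping groups. It was not called without wildtype 1 or 3, without mutant 1, 3 or 6, or with the transcript length trend removed (edgeR adjusted p = 0.137).

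Rps27a, which encodes ubiquitin fused to a ribosomal protein, measured 1230, 834 and 920 CPM in the wildtypes and 492 to 663 CPM in the mutants. The groups were far apart, at a log2 fold change of −0.72 (edgeR adjusted p = 0.00163), and it was called with the transcript length trend removed and without each library. Genes of ribosomal proteins have near-identical processed copies, so its reads may be shared.

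Of the genes called higher, 5 were in the longest of the 4 length classes, and without wildtype 1 only Ddi2 was called. In the Nfe2l1 pathway they were Ddi2, the protease that activates Nfe2l1 (67.2 ± 4.46 to 90.9 ± 7.16 CPM, log2 0.44, edgeR adjusted p = 0.00411), and Mafg, its binding partner (log2 0.33). Neither was called with the transcript length trend removed (edgeR adjusted p = 0.335 and 0.3), and Mafg was not called without any 1 of the wildtype libraries. Nfe2l1 itself measured 190, 232 and 213 CPM in the wildtypes and 236 ± 25.2 CPM in the mutants and was not called (log2 0.16, edgeR adjusted p = 0.258). Syvn1, a ligase of the same pathway, was at 0.38 and was not called (edgeR adjusted p = 0.0501). Of the 9 genes in this list, 2 were called higher and 0 lower, beside 9.7% and 9.47% of all genes, with a median of 0.16. Its other genes, none called, were Nfe2l2 (0.24), Vcp (0.15), Maff (0.06), Ngly1 (−0.01) and Mafk (−0.11). Among proteins that dock on the proteasome, the shuttle factors Ubqln1 (0.26) and Ubqln2 (0.37) and the ligase Ube3c (0.32) rose, all as log2 fold changes. Of the 10 genes listed as docking on the proteasome, 3 were called higher and 1 lower, with a median of 0.08. The adaptor Ecpas (0.33), from the list of assembly factors and inhibitors, and the ubiquitin-activating enzyme Uba6 (0.44) rose too. In the list that holds Ecpas, 1 of 8 genes was called higher and 2 lower, with a median of −0.23. Ecpas was not called without wildtype 1, 2 or 3 or without mutant 6, Uba6 without wildtype 1 or 2, Ubqln1 without wildtype 1 or 3, and Ubqln2 and Ube3c without wildtype 1. Of these 5 genes, Ubqln2 was called with the transcript length trend removed. The ubiquitin receptor Adrm1 (log2 −0.19, edgeR adjusted p = 0.114) and the inhibitor Psmf1 (log2 0.07, edgeR adjusted p = 0.573) were not called.

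Of the antigen presentation genes 1 of 11 was called higher and of the interferon genes 1 of 13, shares near the 9.7% of all genes, and none was called lower. The medians of the 2 lists were −0.02 and 0.32. Tapbp, which loads peptides onto class I molecules, rose from 81.4 ± 4.03 CPM to 100 ± 3.93 CPM (log2 0.30, edgeR adjusted p = 0.0115), and Ifngr1, a chain of the interferon gamma receptor, from 45.6 ± 3.12 CPM to 58.6 ± 6.30 CPM (log2 0.36, edgeR adjusted p = 0.0205). Both had groups apart, kept the call with the length trend removed and lost it without wildtype 1. Canx was at 0.27 (edgeR adjusted p = 0.0504), Erap1 at 0.22, Irf1 at 0.58 (edgeR adjusted p = 0.0583) and Irf8 at 0.47 (edgeR adjusted p = 0.0575), none of them called. With the transcript length trend removed Irf1 was called (edgeR adjusted p = 0.0437). These 4 were named for their low p, and other genes of the lists lay below 0, such as Tap2 at −0.38 and Ifngr2 at −0.13, with groups apart and no call.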

How the data were processed

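Total RNA of 9 pools was sequenced. The authors deposited 1 table of raw read counts per Ensembl gene, 1 column per sample and 0 columns without one. The submitters' processing notes list STAR 2.6.1, HTSeq 0.6.1, DESeq2 1.6.3 and GRCm38 (mm10) without a role for each. Strandedness and annotation release: not given in the sources used here. For 34490 of 35275 identifiers, GENCODE (GRCm38) supplied symbol, position and transcript length. Groups follow the labelled genotype.

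Counts were tested with edgeR 4.0.16 (R 4.3.3): TMM, the default low-count filter, a robust quasi-likelihood fit on genotype and Benjamini-Hochberg adjustment over 15825 genes. CPM used TMM library sizes. A standard error is the log2 fold change divided by the root of F. Ratios were tested by exact two-sided permutation of log2 ratios with a prior count of 0.5. Intervals are at 95%. Alternatives were other scalings, DESeq2 1.42.0, limma-voom (limma 3.58.1), other filters and thresholds, a replicate block, length and GC trends (mgcv 1.9.3), the Gm42418 split at 1% as a covariate, and leaving out Gm42418 and Lars2 or each library.

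Members and lists were chosen with earlier results of these data known. The genes named were the catalytic pairs and activators, called members up to the 14 of lowest p, the highest and lowest per length in each role, untested members, up to 3 genes of lowest p per pathway list, and Nfe2l1, Psmf1, Pomp and Adrm1. One gene that the rule names is not reported here. Others (such as Psma5, Psmc2, Psmc5, Psmd2, Psmd3, Psmd5, Psmd6, Psmd14 and the called pathway genes) were added after their values were seen. Replicate libraries differed by more than sampling noise.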

Additional observations from a re-analysis of the deposited data

Results flagged for a closer look

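In 3 of 44 members 1 mutant library stood apart from the other 5 by more of the group's range than Dixon's 95% limit allows, and chance does this in about 1 group in 20. Psma8 was at 2.25 CPM in mutant 1, with the next mutant at 0.478 CPM. Psmd14 was at 62.1 CPM in mutant 5, with the next at 56.7 CPM, level with the lowest wildtype. Psme2 was at 26.9 CPM in mutant 4, with the next at 42 CPM.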

How the results depend on the processing

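The 23 alternatives were each tested over all genes at an adjusted p under 0.05, and the stricter threshold of 0.01 was counted apart from them. Psma7, Psmb1 and Psmd13 were called lower under every one of the 23, and all 21 called members kept their sign under every one. Members called lower, 20 in the report, numbered 13 with the exon length trend removed (13 with GC content too), 7 with the principal transcript length trend removed (7 with GC content too), 9 with a replicate block (4.24% of all genes), 6 at an adjusted p under 0.01 and 3 to 23 when 1 library was left out. Members called higher, 1 in the report, numbered 0 with the Gm42418 split as a covariate, with the transcript length trend removed (0 with GC content too) and at 0.01, and 0 to 1 when 1 library was left out. Core genes called lower, 12 in the report, numbered 5 with the transcript length trend removed (5 with GC content too), 5 at 0.01 and 2 to 12 without 1 library. Regulatory genes called lower, 4 in the report, numbered 8 with limma-voom, 1 with a replicate block, 2 with exon length removed (2 with GC), 1 with transcript length removed (1 with GC), 1 at 0.01 and 1 to 7 without 1 library. Pathway genes called lower, 4 in the report, numbered 2 with exon length removed and 1 to 5 without 1 library, and those called higher, 9 in the report, 1 to 12. The replicate numbers 4, 5 and 6 belong to mutants only. With the replicate block, the genotype effect therefore rests on wildtypes 1 to 3 and mutants 1 to 3. The cause of these shifts was not tested.

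Signs turned only for uncalled values, as log2 fold changes. Psma8 was −0.39 with limma-voom, −0.30 with the split covariate and −0.77 to 0.80 without 1 library, the lowest without mutant 1. Psmb10 was 0.03 with the replicate block. With exon length removed, and then with GC content as well, Psmb10 was 0.04 and 0.03, Psmb2 0.06 and 0.05, Psmd1 −0.09 and −0.10 and Psme2b 0.05 and 0.04, and Psmd11 was −0.01 with GC content. With transcript length removed, and then with GC content, Psmb10 was 0.06 and 0.05, Psmb2 0.12 and 0.11, Psmc3 0.03 and 0.02 and Psme2b 0.08 and 0.07, and Psmd4 was 0.00 without GC content. Psmd1 was −0.04 with the split covariate and −0.00 without mutant 4, and Psme2b −0.40 to 0.05 without 1 library, the highest without wildtype 3. Psme3 was −0.02 with upper quartile factors, −0.01 without scaling, −0.02 with limma-voom, −0.01 with the replicate block, −0.03 with the split covariate and −0.03 to 0.03 without 1 library. Members not named by rule turned too, to 0.13 (Psma5), 0.03 (Psmc1) and −0.04 (Psmd3) with exon length removed and to 0.12 (Psma5), 0.03 (Psmc1), 0.05 (Psmc2) and 0.01 (Psmc4) with transcript length removed. The Psmb9 to Psmb6 log2 ratio was −0.20 to 0.08 without 1 library, with 0.01 without wildtype 1 and 0.08 without wildtype 3. For the members named by rule, 641 values kept direction and side of the threshold, 106 lost the call, 10 gained it and 34 turned. These counts take in the stricter threshold of 0.01 beside the 23 alternatives, and 13 of the lost calls were lost there.

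The replicate numbers did not pair the libraries: same-numbered wildtype and mutant deviations correlated at 0.095, 0.026 and −0.104. Psma8, Psmb8, Psmb9, Psmb11 and Psme2b had at most 87 reads in any library.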
